A study of Mus musculus with 2 samples.

Results

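The cytosolic ribosomal protein genes encode the protein subunits of the ribosome that translates messenger RNA in the cytoplasm. They were taken as protein-coding genes whose symbol is Rpl or Rps with a number and an optional a, x, l or y, together with Rplp0 to Rplp2 and Rpsa. The rule found 80 genes among 21951 protein-coding genes of GENCODE vM21, 49 of the large subunit and 31 of the small subunit. CTCF binding at these genes was read from chromatin immunoprecipitation with sequencing (ChIP-seq) of whole liver from B6NCrl mouse embryos aged 14.5 days. B6NCrl is an inbred strain, and the labels give no mutation or treatment. There is a single group of 2 libraries. Both were made with a CTCF antibody from 1 biosample, which joined powdered livers of several dissections and both sexes. The labels number them as biological replicates. Because they share 1 biosample, the spread between them was read as technical, without differences between animals, and this could not be checked. Fetal liver of this stage holds blood-forming cells beside hepatocytes, and a peak in the pooled tissue cannot be assigned to a cell type. The labelled tissue could not be checked against marker genes, because no RNA was measured in these libraries.

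Ribosomal protein genes are known as housekeeping genes with short, highly expressed transcripts, and their starts usually lie in a pyrimidine tract that also tunes translation of the messenger RNA. The ribosome needs its subunits in equal amounts, and blood precursors are sensitive to a shortage of several of them. CTCF is a zinc finger protein that binds a long DNA motif, stops the loop-extruding cohesin ring in an orientation-dependent way, and also sits close to the starts of many active genes. Promoter motifs known for ribosomal protein genes include those of ETS factors such as GABP, of SP1 and of YY1.

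Sites under strong promoter peaks are shown first, because motif letters are set against peak strength further on. Each line gives 30 bases of build mm10 (GRCm38) on the strand on which the CTCF core aligns, read 5′ to 3′. Capitals mark the 14 bases aligned to the core motif, and lower case marks 8 bases on each side. The first 5 sites belong to large subunit genes and the next 3 to small subunit genes, all with at most 2 mismatches to the core.
Rpl26: cctccgagCCGCTAGATGTCGCtaaactcc
Rplp0: gctccgacCCAGCAGAGGGCAGcaggtctg
Rpl36: acctccggCCACCAGAGGTCGCccgcagcg
Rpl5: tcctcctaCCGGCAGGGGGCGAtagcccgc
Rpl11: aggacagtCCACTAGAGGTGGCagcgccac
Rps24: tgaaggagCCGCTAGATGGCGAtctagaag
Rps4x: acctcccaCCAGCAGATGGCAAgagagagt
Rps19: agactccgGCACTAGATGGCGGagctgaac
These sites lie at chr11:68901457-68901486 (Rpl26, plus strand), chr5:115559282-115559311 (Rplp0, plus), chr17:56613320-56613349 (Rpl36, plus), chr5:107900457-107900486 (Rpl5, plus) and chr4:136053472-136053501 (Rpl11, minus). The small subunit sites lie at chr14:24487118-24487147 (Rps24, minus), chrX:102189426-102189455 (Rps4x, minus) and chr7:24883977-24884006 (Rps19, plus). Rplp0 had 0 mismatches, and was the single gene of the 49 with a promoter peak whose strongest peak matched the core in full. Rpl36, Rps4x and Rps19 had 1 mismatch, and Rpl26, Rpl5, Rpl11 and Rps24 had 2.

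A CTCF summit lay within 1 kb of an annotated start at 49 of the 80 ribosomal protein genes in the optimal list, against 7727 of all 21951 protein-coding genes. The optimal and conservative lists are the authors' sets of peaks thresholded by irreproducible discovery rate (IDR) from both replicates together. A place in the optimal list does not mean that each replicate called the peak on its own. For Rps12, replicate 1 had no own peak within 100 bp of the strongest optimal summit. The shares were 61.25% (Wilson 95% interval 50.3 to 71.2, counting error only) and 35.2%. In the conservative list they were 58.75% of ribosomal protein genes and 34.4% of all protein-coding genes. The lists of single replicates were cut at their 50909 strongest peaks, the length of the optimal list. In replicate 1, 70.0% of the ribosomal protein genes then had a summit at a start, against 39.4% of all protein-coding genes. In replicate 2 it was 52.5%, against 31.7%. The share of ribosomal protein genes was 61.25% ± 12.4 (SD, n = 2) over the replicates and that of all protein-coding genes 35.5% ± 5.43 (SD, n = 2). The difference of 26.0 percentage points in the optimal list was 30.6 points in replicate 1 and 20.8 points in replicate 2, so it exceeded the spread between the libraries. No test across conditions exists with a single group, and the genes are not replicates of a condition.

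The other genes of the translation apparatus had shares in the same range. Genes of the mitochondrial ribosome had a promoter peak in 42 of 78 (53.8%), translation initiation and elongation factor genes in 34 of 62 (54.8%), and ribosome assembly genes in 18 of 30 (60%). Of 294 ribosomal protein pseudogenes, which are mostly processed copies without the parent promoter, 9 had a summit within 1 kb (3.06%). Their nearest summits lay at a median of 564 bp, and none was within 250 bp of a start.

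**Figure D1:**
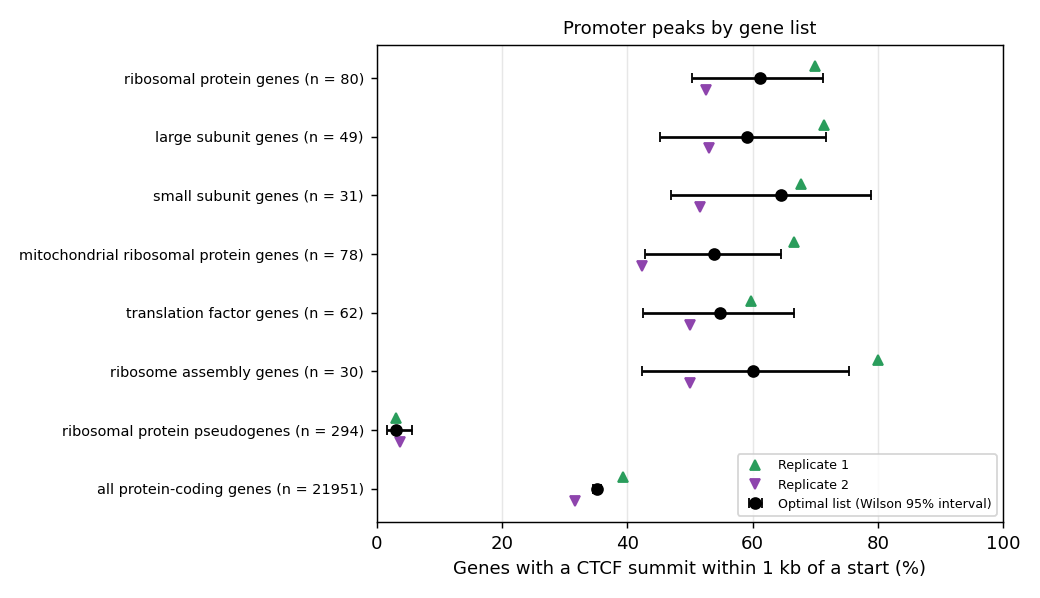
Share of genes (%) with a CTCF summit within 1 kb of a start, by gene list. Circles give the optimal list with its Wilson 95% interval and triangles the 50909 strongest peaks of each replicate; the ribosomal protein genes sit at 61.25% and all protein-coding genes at 35.2%, and replicate 1 lies above replicate 2 in every list except the pseudogenes.

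Large and small subunit genes did not part consistently. In the optimal list 29 of 49 large subunit genes (59.2%) and 20 of 31 small subunit genes (64.5%) had a promoter peak, a difference of -5.33 percentage points. The sign turned in both replicates, with +3.69 points in replicate 1 and +1.45 points in replicate 2. In the conservative list the shares were 61.2% of large and 54.8% of small subunit genes. The direction of this difference is therefore not settled by these data.

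Signals were compared as relative signal, the deposited signal of a gene's strongest promoter peak divided by the median signal of the list, 68.0 in the optimal list. In a single replicate, the peak called there within 100 bp of the optimal one was taken and divided by the median of the 50909 strongest. The signal scale is the authors', and its unit is not known here. Over the 49 ribosomal protein genes with a peak, relative signal had a median of 1.36, with quartiles of 0.569 and 5.01. Over the 7727 protein-coding genes that had a promoter peak the median was 1.03. The difference in medians, taken over the genes with a promoter peak in each replicate, was 0.04 in replicate 1 and 1.15 in replicate 2. Its mean of 0.60 ± 0.78 (SD, n = 2) was smaller than the spread between the libraries. Large subunit genes had a median of 1.54 and small subunit genes 1.11 in the optimal list, and this difference was 0.16 in replicate 1 and -0.03 in replicate 2.

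The share at the upper end of the range was above that of all protein-coding genes in both replicates, on few genes in replicate 2. A relative signal of 5 or more was reached by 13 of the 49 ribosomal protein genes (26.5%), against 10.8% of the 7727 protein-coding genes. Among the genes with a promoter peak in replicate 1, 15 of 56 ribosomal protein genes (26.8%) and 14.4% of all protein-coding genes reached it. In replicate 2 it was 6 of 42 ribosomal protein genes (14.3%) and 7.61% of all protein-coding genes. Another 12 of the 49 were under 0.5 (24.5%), against 27.3% of all protein-coding genes. The ribosomal protein genes thus ran over the whole range of peak strength, with 5 of the 49 (10.2%) among the 1000 strongest optimal peaks, against 3.86% of the 7727 protein-coding genes.

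Rpl26, a large subunit protein that in human cells also promotes translation of the messenger RNA of p53, had the strongest peak of the set. Its signal was 545.6 in the optimal list, rank 175 of 50909, and its relative signal was 9.27 in replicate 1 and 7.04 in replicate 2. The summit lay 110 bp upstream of the nearest start.
Rplp0, which forms the base of the stalk that recruits translation factors, had a signal of 518 and reached 9.11 in replicate 1 and 6.55 in replicate 2. Its summit lay 148 bp upstream, next to the full match shown above.
Rpl36, a protein of the large subunit, reached 8.54 in replicate 1 and 6.94 in replicate 2, with the summit 78 bp upstream of its only annotated start. All 3 genes were well above the median of the list in both libraries.
Rpl5 and Rpl11 bind the small ribosomal RNA of the large subunit together and, when free of ribosomes, inhibit Mdm2. Rpl5 had a relative signal of 8.32 in replicate 1 and 6.30 in replicate 2, with the summit 16 bp upstream of a start. Rpl11 had 7.08 in replicate 1 and 4.87 in replicate 2 at 60 bp upstream, and a second peak 682 bp upstream with 1.19 in the optimal list. Both main peaks held a motif match close to the start.

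Among small subunit genes, Rps24 had a relative signal of 6.35 in replicate 1 and 4.86 in replicate 2. Its summit fell exactly on an annotated start, 67 bp from a start of Polr3a, the largest subunit of RNA polymerase III, on the opposite strand. Rps24 and Rps19 are among the genes whose loss of 1 copy causes Diamond-Blackfan anaemia, a failure of red cell production, in humans.
Rps15 had 6.23 in replicate 1 and 3.96 in replicate 2, with the summit 86 bp upstream. Rps14, whose loss contributes to the anaemia of a chromosome deletion syndrome in humans, had 5.96 in replicate 1 and 4.31 in replicate 2. Rps24, Rps15 and Rps14 were above the list median in both libraries, and replicate 1 was the higher one each time. Rps19 had 3.76 in replicate 1 and 2.56 in replicate 2, with the summit 359 bp upstream. Rps4x, the X-linked gene of a small subunit protein, had 4.66 in replicate 1 and 2.67 in replicate 2, with the summit 25 bp upstream.

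Strong peaks without a match to the core at 2 mismatches were found at 4 of the 13 genes with a relative signal of 5 or more (30.8%), against 17.2% of all protein-coding genes in that class. Rps15 and Rps14 were among them, and so was Rpl10a, with 6.61 in replicate 1, 4.91 in replicate 2 and a summit 5 bp upstream of a start. A count of 4 genes is small, and the share is not read as different from that of all protein-coding genes. The best alignments at Rpl10a and Rps15 each had 3 mismatches, and are given for comparison with the sites above, in the same layout.
Rpl10a: cggtgcagCCGCGTGGTGGCGCccccccag
Rps15: gcctccggACAGCGGGGGGCAAtggcgagt
They lie on the plus strand at chr17:28328441-28328470 (Rpl10a) and chr10:80292345-80292374 (Rps15). At most 3 mismatches would count both of them as matches.

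The weakest peaks were near the end of the optimal list. In the large subunit, Rpl13 had a relative signal of 0.237, Rpl8 0.253 and Rpl7a 0.264 in the optimal list. In the small subunit, Rps12 had 0.130 and Rps25 0.233. Their signals ran between 8.85 and 18.0, against the list median of 68.0. Rpl8 is a core protein of the large subunit next to the catalytic centre, and Rpl13 and Rps12 host small nucleolar RNAs in their introns, as Rpl7a does. None of these 5 genes had a motif match.

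**Figure D2:**
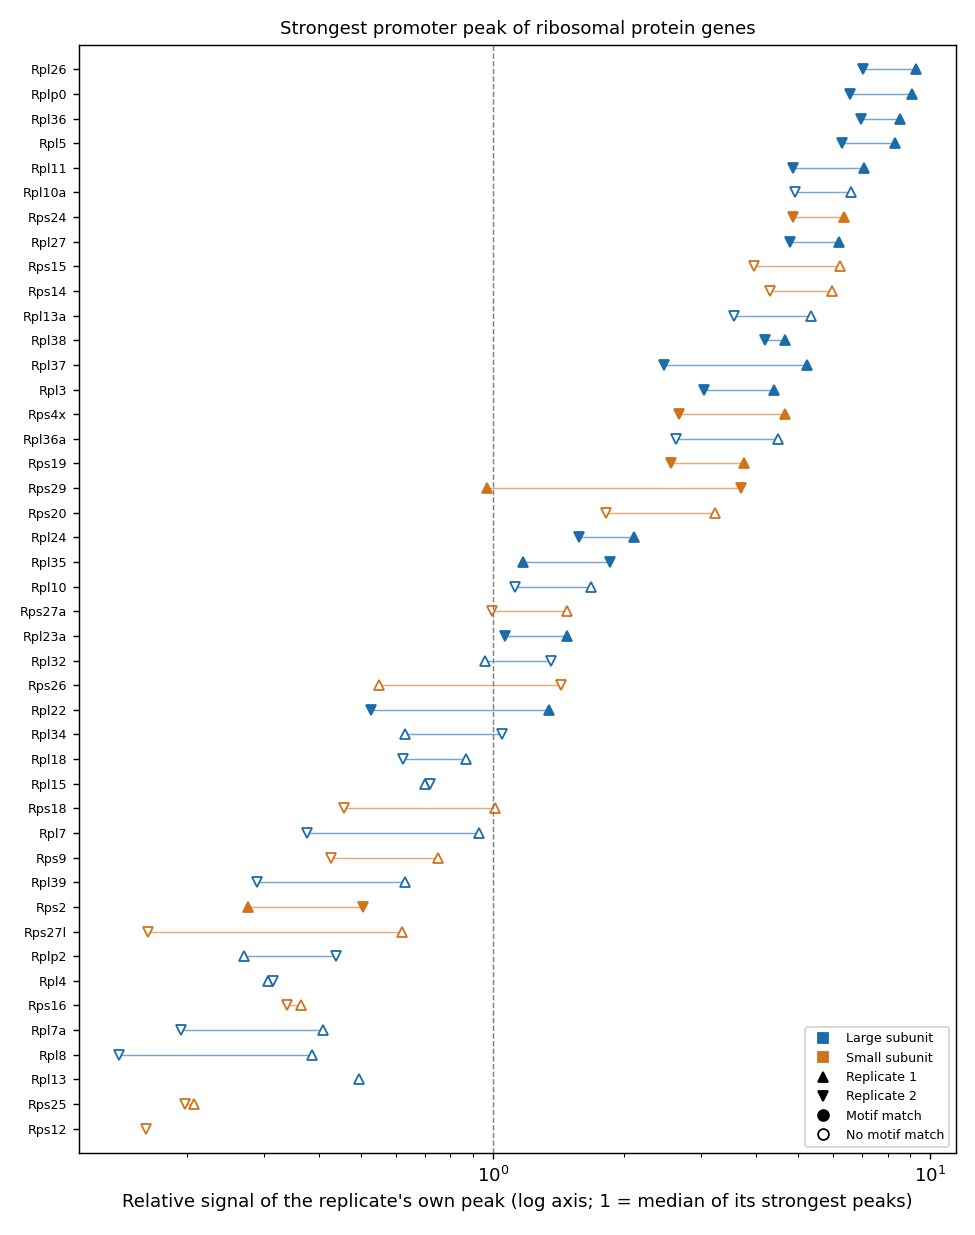
Relative signal (log axis, 1 is the median of the 50909 strongest peaks of the replicate) of the peak of each replicate within 100 bp of the strongest optimal promoter summit, for 44 of the 49 ribosomal protein genes with a promoter peak, ordered by optimal signal. Filled symbols have a motif match. The genes run between Rpl26 at 9.27 and 7.04 and Rps12, for which replicate 1 had no own peak within 100 bp of that summit.

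Replicate support is given as a description only. It is not independent of peak strength, because the optimal list came from these same 2 libraries, and it was not counted over all protein-coding genes. Of the 49 strongest promoter peaks, 39 had an own peak within 100 bp among the 50909 strongest of both replicates, 8 in 1 replicate only, and 2, those of Rps25 and Rps12, in neither. Over the whole lists of 300000 peaks each, 48 had an own peak in replicate 1 and 48 in replicate 2. Among the 7 without an own peak among the strongest of replicate 2 were Rps27l, Rpl7a, Rpl8, Rpl13, Rps25 and Rps12. Without one among those of replicate 1 were Rps2, Rplp2, Rpl4, Rps25 and Rps12. Each of these genes had an optimal relative signal under 0.5. Rps12 and Rpl4 did have a promoter summit elsewhere among the strongest of replicate 1, with relative signals of 0.565 and 0.372. The conservative list held 43 of the 49 summits, and the 6 it lacked included those of Rpl13, Rpl8, Rps12, Rps25 and Rps27l.

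Among the 47 genes with an own peak in both replicates, 37 had the higher relative signal in replicate 1 and 10 in replicate 2. The same count was not made for the protein-coding background. Background genes with a promoter summit reached a relative signal of 5 or more in 14.4% of cases in replicate 1 and 7.61% in replicate 2. The higher values in replicate 1 are therefore not read as particular to ribosomal protein genes. Rps29 stood out among the stronger peaks, with 0.970 in replicate 1 and 3.69 in replicate 2, at a summit 565 bp upstream. Another promoter summit of Rps29 was higher in replicate 1, at 1.29. Rpl15 was alike in both, with 0.701 in replicate 1 and 0.720 in replicate 2. In all, 40 ribosomal protein genes had a promoter peak among the strongest of both replicates, 16 in replicate 1 only, 2 in replicate 2 only and 22 in neither. All 40 with both also had one in the optimal list.

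The summit nearest to a start was at a median distance of 80 bp at the 49 ribosomal protein genes, against 149 bp at the 7727 protein-coding genes. The medians were 70 bp and 134 bp in replicate 1, and 92 bp and 169 bp in replicate 2, so the difference of -69 bp exceeded the spread between the libraries. A nearest summit within 100 bp was found at 30 of the 49 (61.2%), against 39.3% of all protein-coding genes, and within 250 bp at 41 (83.7%), against 63.3%. Ribosome assembly genes were closer still, with a median of 62.5 bp and 72.2% within 100 bp. Ribosomal protein genes also have more annotated starts, a median of 6 against 3. With only the 5′ end of the gene record as start, the median was 145 bp at ribosomal protein genes and 208 bp at all protein-coding genes.

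The strongest summit was upstream of its nearest start at 36 of the 49 ribosomal protein genes (73.5%), against 59.7% of all protein-coding genes. It was 72.2% at ribosome assembly genes and 67.6% at translation factor genes. The 100 bp just upstream held 17 of the 49 (34.7%), against 21.6%. Of the 20 small subunit genes none had its strongest summit more than 100 bp downstream of a start, against 6 of the 29 large subunit genes (20.7%) and 29.3% of all protein-coding genes. This count is given for the optimal list and the 1 kb window only. With the 500 bp window the strongest peak at Rps29 was a weak one (0.219) 418 bp downstream. By annotation, 26 of the strongest summits lay upstream of the gene, 10 in a 5′ UTR, 10 in an intron, 2 in a non-coding exon and 1, that of Rpl7, in a coding exon. Of these summits 10 also lay within 1 kb of a start of another coding gene, and those of Rpl3, Rps18 and Rps25 were closer to the starts of Syngr1, Vps52 and Trappc4 than to their own. The counts by annotation and by other coding starts were not taken over all protein-coding genes. They are not read as particular to ribosomal protein genes.

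**Figure D3:**
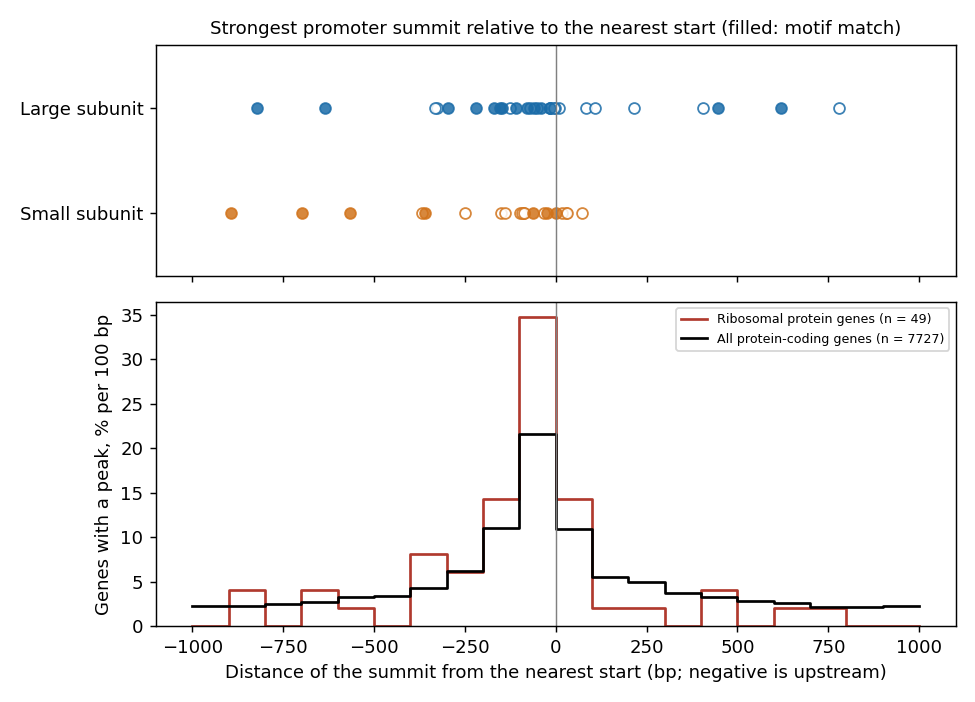
Distance (bp, negative is upstream) of the strongest promoter summit from the nearest start. The upper panel shows each large and small subunit gene, filled where a motif matched; the lower panel gives the percentage per 100 bp for the 49 ribosomal protein genes and for the 7727 protein-coding genes with a promoter peak, with 34.7% and 21.6% in the 100 bp just upstream.

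More than 1 promoter summit was found at 14 ribosomal protein genes (28.6%), against 26.5% of the 7727 protein-coding genes. They included Rpl3, Rpl38, Rpl7, Rpl11, Rpl13a, Rpl18, Rpl22, Rpl37, Rpl39, Rps12, Rps20, Rps25 and Rps29. At Rpl37 both summits lay in the same peak interval, the weaker with a relative signal of 0.086. The weaker summits of Rps12 (0.085) and Rps25 (0.091) were also near the end of the optimal list. Rpl3, which lies beside the catalytic centre of the large subunit, had 4 promoter summits, near starts that lie several kilobases apart. Its strongest peak had a relative signal of 3.66 in the optimal list, and another peak, 323 bp upstream of a start and with 2.46, matched the core with 0 mismatches. Rpl38, needed in mice for translation of a set of Hox messenger RNAs, had 3 peaks with relative signals of 4.32 at 40 bp upstream, 1.83 at 511 bp downstream and 0.954 at 468 bp upstream. Its main peak had 4.65 in replicate 1 and 4.19 in replicate 2. At Rpl22 the stronger peak, with 0.949, lay 446 bp downstream in an intron, and the weaker, with 0.700, lay 5 bp upstream of a start.

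A match to the core CTCF motif with at most 2 mismatches within 50 bp of the strongest summit was found at 21 of the 49 ribosomal protein genes (42.9%), against 48.0% of the 7727 protein-coding genes. The difference of -5.10 percentage points was -10.4 in replicate 1 and -2.14 in replicate 2, a mean of -6.28 ± 5.85 (SD, n = 2), about as large as its spread. Over all 80 ribosomal protein genes, 26.25% had a strongest promoter peak with a match, against 16.9% of all protein-coding genes. The match was found in 14 of 29 large subunit genes (48.3%) and 7 of 20 small subunit genes (35.0%). In replicate 1 the shares were 40.0% of large and 19.0% of small subunit genes, and in replicate 2 they were 53.8% of large and 43.8% of small subunit genes. The difference was 21.0 percentage points in replicate 1 and 10.1 in replicate 2. Of all optimal peaks, wherever they lie, 70.8% had one.

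Peaks with a match had the higher signals at the median, with overlap between the groups. Relative signal had a median of 3.74 at the 21 genes with a match, with a range of 0.385 to 8.03, and of 0.697 at the 28 without, with a range of 0.130 to 5.66. Over the genes with an own peak in both replicates, the medians were 4.66 with and 0.810 without a match in replicate 1, and 3.69 with and 0.672 without in replicate 2. A match was present at 15 of 22 genes with a relative signal of 2 or more (68.2%), against 74.0% of all protein-coding genes in that class. It was present at 3 of 21 genes under 1 (14.3%), against 29.3%. The 7 genes whose peak had no own peak among the strongest of replicate 2 all lacked a match, and of the 5 without one among those of replicate 1, 4 lacked a match and 1, Rps2, had one.

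**Figure D4:**
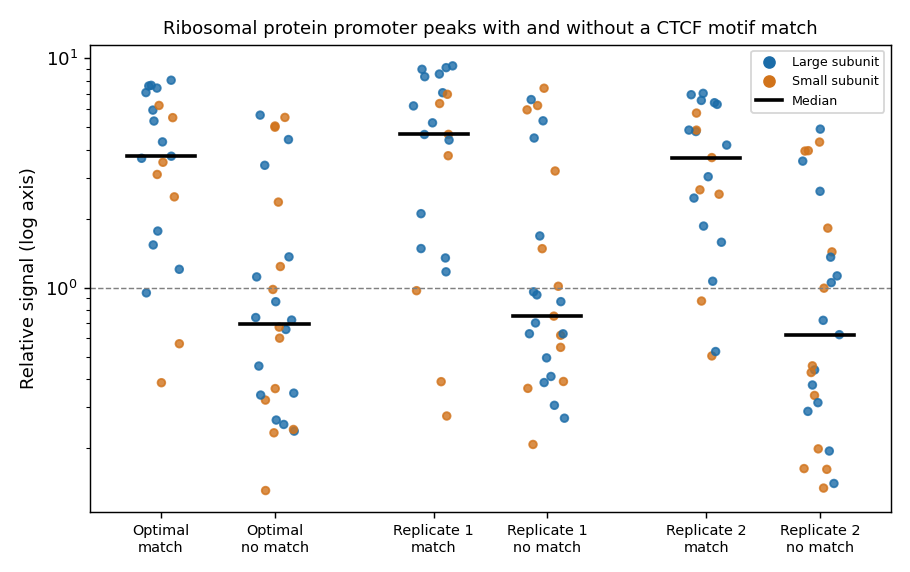
Relative signal (log axis) of the strongest promoter peak at ribosomal protein genes with and without a match to the core CTCF motif, in the optimal list and in each replicate, one point per gene and a bar at the median. In the optimal list the medians are 3.74 with a match and 0.697 without, and the groups overlap.

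Position went with the match too. The strongest summit lay within 100 bp of a start at 7 of the 21 genes with a match and at 17 of the 28 without, and its median distance was 170 bp with and 86 bp without. The core read along the strand of the gene at 14 of the 21 sites and on the other strand at 7. Its centre was upstream of the nearest start at 18 of the 21. The strongest summit itself was upstream at 36 of all 49 genes, with or without a match. The counts of position and strand were not taken over all protein-coding genes with a match. They are therefore not read as particular to ribosomal protein genes.
Of the 21 sites, 5 lay in repeat-masked sequence of the RefSeq genome (23.8%), against 27.1% of all optimal peaks with a match. They included those of Rplp0, Rpl38, Rpl24 and Rps2. The peak of Rps2 was weak, with 0.275 in replicate 1 and 0.504 in replicate 2.

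Without an optimal summit within 1 kb were 20 large subunit genes, Rpl6, Rpl9, Rpl12, Rpl14, Rpl17, Rpl19, Rpl21, Rpl23, Rpl27a, Rpl28, Rpl29, Rpl30, Rpl31, Rpl35a, Rpl37a, Rpl41, Rplp1 and the paralogs Rpl3l, Rpl10l and Rpl39l. So were 11 small subunit genes, Rps3, Rps6, Rps7, Rps10, Rps13, Rps15a, Rps21, Rps23, Rps27, Rps28 and Rpsa. Rps6 is the protein phosphorylated downstream of mTOR, and Rplp1 is a stalk protein that binds Rplp0, which had a strong peak. Rpl3l is known from striated muscle, and Rpl10l and Rpl39l from testis. The remaining paralog, Rps27l, a target of p53, had a weak peak, with 0.363 in the optimal list.
The nearest optimal summit to these 31 genes lay at a median of 4040 bp, between 1301 bp for Rpl14 and 568975 bp for Rpl10l. It was within 5 kb for 16 genes and within 10 kb for 25, and beyond 50 kb for Rpl10l and Rpl39l. With a 5 kb window, 81.25% of all 80 ribosomal protein genes and 54.0% of all protein-coding genes had a summit. The distances and counts over the 31 genes were not taken over the protein-coding genes without an optimal promoter peak. Just outside the 1 kb window were Rpl14 at 1301 bp, Rpl41 at 1372 bp and Rpl23 at 1402 bp, and inside it were those of Rps2 at 894 bp and Rpl34 at 780 bp. Of the 31 genes, 10 had a promoter peak among the strongest of replicate 1 and 0 among those of replicate 2. Over the whole lists of 300000 peaks, 24 of the 31 had a summit within 1 kb in replicate 1 and 27 in replicate 2. The share of all protein-coding genes was not computed for the whole lists. Some of these summits were very weak, such as those of Rpl30 (0.089) and Rps21 (0.093) in replicate 2. They are not read as binding at these genes. The conservative list had a summit within 1 kb at 4 of the 31, Rpl17, Rpl27a, Rpl41 and Rps15a. The 10 genes of replicate 1 were Rpl12, Rpl21, Rpl27a, Rpl28, Rpl29, Rpl41, Rplp1, Rps7, Rps15a and Rps27, all with a relative signal under 1 there. The highest of them, 0.555 at Rps15a, had 0.237 in replicate 2.

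A few ribosomal proteins carry other symbols. Rps3a1, added after its values were seen, had a signal of 535 and reached 9.08 in replicate 1 and 6.88 in replicate 2, with the summit 40 bp upstream of its start and 2 mismatches to the core. Its optimal relative signal of 7.87 lies between those of Rpl26 and Rplp0. Fau, which makes a ribosomal protein fused to a ubiquitin-like protein, had no optimal summit within 1 kb, and the nearest was 3129 bp away. Rps27a, a ubiquitin fusion that the symbol rule does take, had a peak of 1.48 in replicate 1 and 0.994 in replicate 2, placed 31 bp downstream of a start.

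Ribosomal protein genes with and without a promoter peak were alike in base composition. Base composition was taken within 500 bp of the 5′ end of the gene record. At Rpl18, Rpl24, Rps14 and Rps2 the promoter peak lay only near other starts, whose composition was not taken. The median GC content was 56.8% with a peak and 56.3% without, and 54.7% over all protein-coding genes. The observed over expected ratio of CpG was 0.776 with a peak, 0.822 without and 0.552 over all protein-coding genes. Small nucleolar RNAs were hosted by 19 of the 49 genes with a peak (38.8%) and by 10 of the 31 without (32.3%), against 1.18% of all protein-coding genes. A coding start on the opposite strand within 1 kb was found at 12 genes with a peak (24.5%), at 5 without (16.1%) and at 12.3% of all protein-coding genes.

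Split by GC content or by the number of annotated starts, the share with a peak stayed between 58.1% and 66.7% at ribosomal protein genes, and ran between 12.3% and 59.8% over all protein-coding genes. By GC content it was 6 of 9 (66.7%) under 50%, 34 of 57 (59.6%) at 50 to 60%, and 9 of 14 (64.3%) at 60% or more. Over all protein-coding genes these classes had 12.3%, 42.3% and 51.6%. By annotated starts it was 61.9% with 1 to 3 starts, 58.1% with 4 to 6 and 64.3% with 7 or more, against 21.2%, 45.0% and 59.8% of all protein-coding genes. With a coding start on the opposite strand within 1 kb the share was 70.6% of 17 ribosomal protein genes and 56.8% of all protein-coding genes, and without one 58.7% and 32.2%. Among hosts of small nucleolar RNAs it was 65.5% of 29 ribosomal protein genes and 45.6% of all protein-coding genes, and among the other genes 58.8% and 35.1%. The Wilson interval of the ribosomal protein genes covers the value of all protein-coding genes at 4 to 6 starts, at 7 or more starts, at a GC content of 60% or more and with an opposite coding start. The intervals hold counting error only, and genes are not replicates. A class outside this list is therefore not shown to differ.

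**Figure D5:**
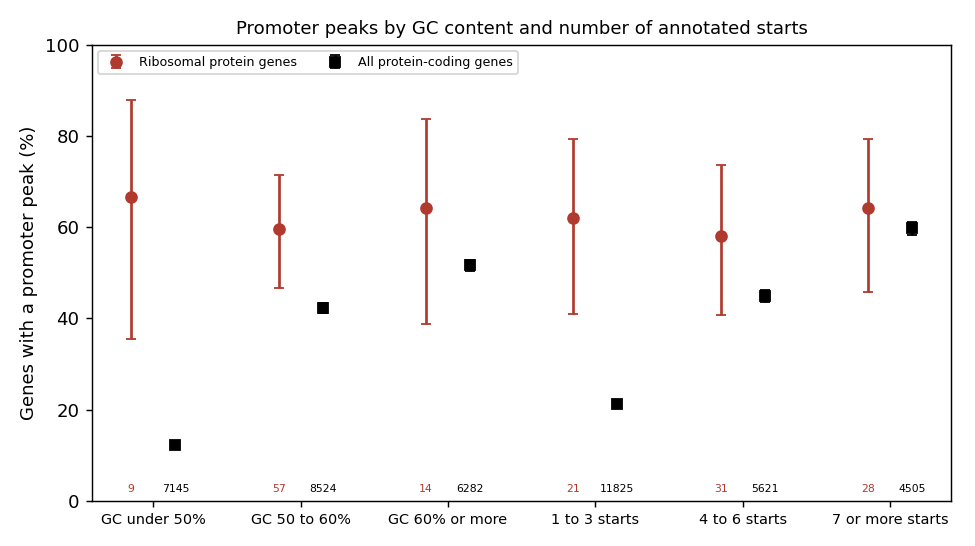
Share of genes (%) with an optimal promoter peak by GC content and by number of annotated starts, with Wilson 95% intervals and the number of genes at the foot. GC content was taken within 500 bp of the 5′ end of the gene record. Ribosomal protein genes sit between 58.1% and 66.7% in every class, and all protein-coding genes between 12.3% and 59.8%.

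Promoter letters were read in the 250 bp before and 50 bp after the 5′ end of the gene record, on both strands. The ETS core CCGGAAG was in 22 of the 80 windows of ribosomal protein genes (27.5%), against 10.8% of all protein-coding genes. It was in 12 of the 49 with a peak (24.5%) and in 10 of the 31 without (32.3%). The YY1 core AAGATGG was in 11 of the 80 windows (13.75%), against 6.24%, the SP1 box GGGCGG in 36 (45.0%), against 43.1%, and TATAAA in 8 (10%), against 12.7%. The CTCF core with at most 2 mismatches was in 12 of the 49 windows with a peak (24.5%), in 1 of the 31 without (3.23%) and in 15.8% of the windows of all protein-coding genes. These are matches of letters in a fixed window, and none of the other factors was measured here.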

How the data were processed

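CTCF ChIP-seq was made on 2 libraries of 1 pooled liver biosample. The authors deposited narrowPeak lists on build mm10, per the text files beside them, called against a control: 1 list of 300000 peaks for each replicate, and lists thresholded by IDR named optimal (50909 peaks) and conservative (49129). The peak caller and the reads per library are not given in the sources used here, so depth is unknown and Wilson intervals (95%) cover counting error only. Signal, as deposited, is a value the caller gave each peak on a scale not stated, and was compared within a list only. The deposited summit offset, another column of the lists, was added to the peak start. The score, p and q columns, the pooled list, the control and the tracks were not analysed here, and 21 optimal peaks on scaffolds were left out.

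Summits were set against starts of GENCODE vM21 (Python 3.11.15, NumPy 2.4.6, pysam 0.24.0, samtools 1.23.1). The core of the CTCF consensus, 14 bases long, was searched on both strands within 50 bp of a summit, allowing 2 mismatches, in the RefSeq sequence of GRCm38. The functions were tested on simulated summits and motifs. Genes named are, in each subunit, the 5 of highest and 3 of lowest optimal signal, those with a second promoter peak, a full motif match or missing replicate support, all without a peak, and Fau; Rps3a1, Rps29, Rpl15, Rps4x, Rps19, Rps27a, Rpl34 and a few background examples were added after their values were seen. Some genes that the rule takes are counted and not reported here by name. The gene set and the lists compared were chosen with earlier results of these data known. No tests were run, since there is 1 group. The alternatives tried were single replicates, the conservative list, the stronger part of the optimal list (above its median signal), windows of 500 bp and 5 kb, 1 start per gene, other motif and summit distances, and other members.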

Additional observations from a re-analysis of the deposited data

How the results depend on the processing

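The count of 49 ribosomal protein genes with a promoter peak lay between 42 and 56 when a replicate was left out and was 28 (35%) with optimal peaks above the median signal, against 18.0% of all protein-coding genes. It stayed within 1.5 times 49 under every other alternative run. The large minus small subunit difference of -5.33 percentage points reversed in the conservative list (6.39), with optimal peaks above the median signal (4.48), with the 5 kb window (0.987) and without either replicate (1.45 to 3.69). It moved to -2.96 with the 500 bp window and with 1 start per gene, and to -0.29 without the paralogs ending in l. The median distance of 80 bp moved to 101.5 bp with optimal peaks above the median signal, 139 bp with the 5 kb window and 145 bp with 1 start per gene, and was 70 to 92 bp when a replicate was left out. It stayed below that of all protein-coding genes, which was 186, 413 and 208 bp under those 3 alternatives. The median relative signal of 1.36 moved to 4.37 with optimal peaks above the median signal and to 2.39 with the 5 kb window, and was 1.09 to 2.16 when a replicate was left out. The motif share of 42.9% moved to 64.3% with optimal peaks above the median signal, to 16.3% with at most 1 mismatch and to 69.4% with at most 3, and was 32.1% to 50% when a replicate was left out. Support by both replicates was 37 to 47 of 49 under other distances and over the whole lists. Adding ribosomal protein genes outside the symbol rule, such as Fau and Rps3a1, an alternative chosen after seeing the data, gave 50 genes with a peak. Keeping only peaks above the median signal removes weak peaks by construction. Allowing at most 1 or at most 3 mismatches can likewise only lower or raise the motif share. The 5 kb window can only add genes whose nearest summit lies beyond 1 kb. For the other changes the cause was not tested. No paired analysis was possible because there is 1 group. A gene without a peak in the optimal list is one where none passed the IDR threshold there, and with read depth unknown this does not show that CTCF is absent.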
